A study of Mus musculus with 2 samples.

Results

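The liver senses its own Chol through a small set of proteins of the endoplasmic reticulum. Their mRNAs Srebf1, Srebf2, Scap, Insig1 and Insig2, and that of the sterol carrier Stard4, were followed here in apoE-KO mice fed Chol. Srebf1 and Srebf2 encode the sterol regulatory element-binding proteins SREBP-1 and SREBP-2, membrane-bound transcription factors. Scap encodes the sterol sensor that escorts them to the Golgi, Insig1 and Insig2 encode the anchors that hold Scap back, and Stard4 encodes a soluble protein that carries Chol between membranes. The 6 genes were taken by their names on the array. All 6 were among the 16730 genes tested, out of 27962 gene names on the array. They were read by 14 probes, of which 13 were well above background in all arrays of at least 1 diet.

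Total RNA of whole liver came from male mice of the C57BL/6 strain that lack apolipoprotein E (apoE-KO), in both diets alike, so the controls carry the deletion too, which by itself raises plasma Chol on chow. From 10 weeks of age the mice received normal chow or the same chow with 1.25% Chol (the high-Chol diet) for 1 week. Each diet was measured on 3 one-colour Agilent arrays, described as 3 independent experiments. The numbers given to the arrays below only name them, and nothing states how many mice gave the RNA of an array. In whole tissue, fewer cells of a type and less RNA per cell cannot be told apart.

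The 3 normal chow arrays and high-Chol array 1 lay on slide 1, and high-Chol arrays 2 and 3 lay on slide 2. The 75th percentile of the spot signals was 271 to 373 on the arrays of slide 1 and 762 to 799 on those of slide 2. For this reason the differences of the 6 genes and the medians of the gene lists are also given with slide as a block, which rests on high-Chol array 1 alone against normal chow. The 8 hepatocyte markers summed to 2516 to 2653 times the 75th percentile on normal chow and 1969 to 2221 on the high-Chol diet. The 7 macrophage markers with 6 values, which leave out Emr1, summed to 86.0 to 109 and 241 to 323. Of the macrophage markers, 7 of 8 were tested, Emr1 among them, and all 7 had a higher mean on the high-Chol diet. Of these, 3 passed the test (2.69% of all genes were called higher). Itgam, which is in the sum, was not well above background on any array and was not tested. Among markers of endothelial, stellate, bile duct, lymphoid and erythroid cells, Ptprc and Col1a1 passed the test, both higher. None of these 5 markers passed with slide as a block. The part of this shift in the results below was not tested.

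When membranes hold enough Chol, Scap binds an INSIG protein and stays with its SREBP in the endoplasmic reticulum. When Chol falls, the pair moves in COPII vesicles to the Golgi, where the proteases encoded by Mbtps1 and Mbtps2 release the part of SREBP that enters the nucleus. SREBP-2 mainly drives genes of Chol synthesis and uptake, and SREBP-1c, the main liver form of SREBP-1, drives genes of fatty acid synthesis. Insig1 and Srebf2 are themselves targets of SREBP. Srebf1 is also a target of the oxysterol receptor LXR.

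In brief, 4 of the 6 mRNAs were lower in mean on the high-Chol diet (Srebf2, Scap, Insig1 and Stard4) and 2 were higher (Srebf1 and Insig2). With limma and Benjamini-Hochberg adjustment over all genes, 1 of the 6 passed the threshold of 0.05, Stard4, which fell. Stard4 did not pass with slide as a block. Over all genes tested, 0.227% were called lower and 2.69% higher (38 and 450 genes, against 73 and 329 under median scaling), and no member was called higher. At an unadjusted p under 0.05, 4 of the 6 were lower, where 8.83% of all genes were, and 0 of the 6 were higher, where 12.3% were. The 3 arrays of one diet lay wholly below those of the other for 3 members (Srebf2, Insig1 and Stard4), which held for 14.0% of the genes with 6 values, and wholly above for 0 members, which held for 11.9%. The median difference over all genes was -0.02 on the log2 scale. All levels below are log2 signals relative to the 75th percentile of the array. Levels of different genes are not compared, since each probe has its own brightness.

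**Figure D1:**
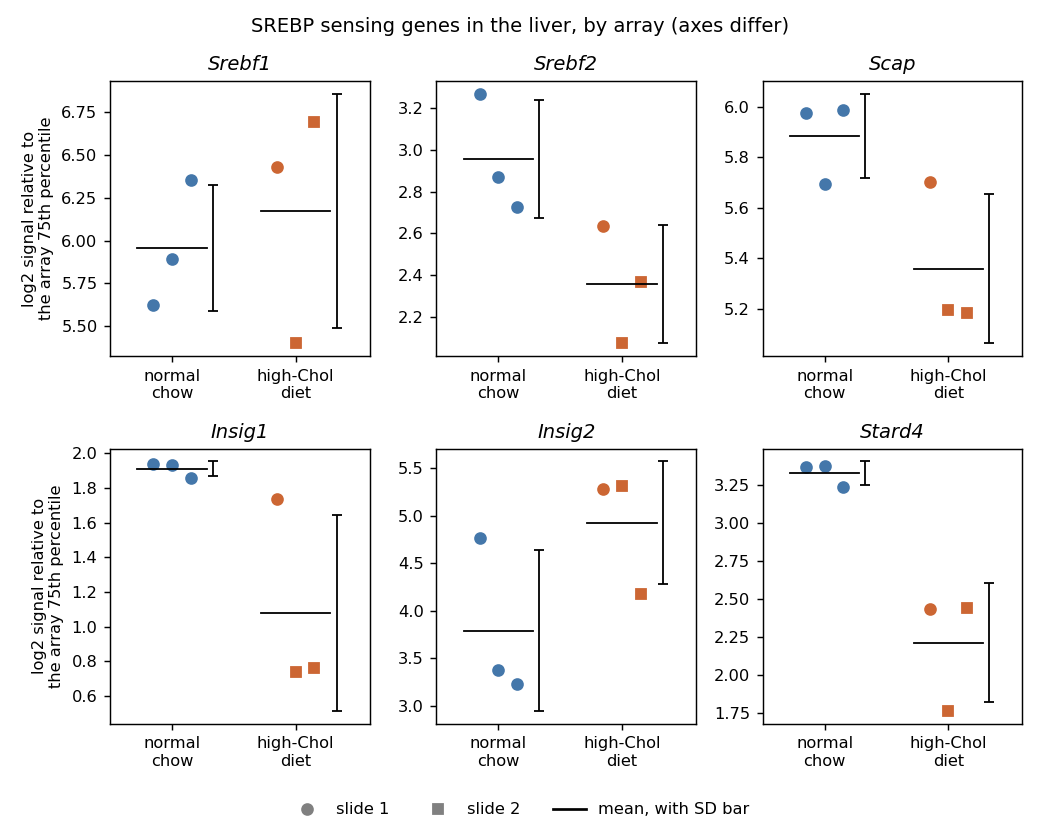
Log2 signal relative to the array's 75th percentile (y axis) for the brightest probe of each gene, by diet (x axis); circles are arrays of slide 1 and squares those of slide 2, with the mean and SD over 3 arrays. Stard4, Insig1 and Srebf2 show no overlap between the diets, with differences of -1.12, -0.83 and -0.59, whereas Srebf1, Scap and Insig2 overlap.

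Srebf2, which encodes the factor that drives Chol synthesis, was lower on the high-Chol diet at its brightest probe. A_52_P473344 (AK172219, chr15:82289660-82289719 on the plus strand in mm7) read 3.27, 2.87 and 2.73 in the normal chow arrays and 2.64, 2.08 and 2.37 in the high-Chol arrays. The diets did not overlap, although the highest high-Chol array lay only a little below the lowest normal chow array. The difference was -0.59 (SE 0.22, 95% interval -1.11 to -0.08), a 1.51-fold lower signal, which did not pass the limma test after adjustment (adjusted p = 0.194). The slide block gave -0.32 and the normexp background -0.29.

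The other 3 probes of Srebf2 did not give 1 answer. A_51_P377508 (NM_033218, chr15:82288730-82288789, 870 bases before the first) read -0.26, -0.59 and -0.59 in the normal chow arrays and -0.47, -1.56 and -1.50 in the high-Chol arrays. Its difference was -0.70 (SE 0.31, limma adjusted p over probes 0.261). Both low values came from slide 2, and high-Chol array 1 lay within the normal chow range, so that the difference with slide as a block was 0.01. Without high-Chol array 1, where diet and slide cannot be told apart, it was -1.05 (limma adjusted p over probes 0.0127). A_52_P665742 (BC069989, chr15:82257952-82258011) read 0.38, 0.18 and 0.21 in the normal chow arrays and 0.38, -0.02 and 0.22 in the high-Chol arrays. The diets overlapped there almost wholly (difference -0.06, SE 0.17, limma adjusted p over probes 0.853).

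A_52_P302001 (NM_033218, chr15:82261838-82261897) went the other way. It was not well above background on any of the 3 normal chow arrays, where it read -5.47, -5.61 and -5.40, and was well above background on all 3 high-Chol arrays, where it read -4.83, -3.43 and -3.60. The lowest signals well above background on normal chow had a mean of -4.55, taken as a floor. With the software's background subtraction, the mean of the high-Chol arrays was at least 1.51-fold above it. That bound rests on the 2 arrays of slide 2, since high-Chol array 1 read below this floor. The probe entered the fit only through the high-Chol arrays, so its p-values are no test of a rise. It did not pass the limma test over probes (limma adjusted p = 0.0825). The limma adjusted p was 0.0450 with median scaling and 0.0030 without high-Chol array 1, where diet and slide cannot be told apart. With normal chow at background the size of the diet difference was not measured. Its sign turned when the background was modelled by normexp in place of the software's subtraction. The sequence of this probe is shown because it stands apart from the other 3, in lower case throughout. Exactly 1 of its 3 forward reading frames holds no stop codon.

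Srebf2 probe A_52_P302001: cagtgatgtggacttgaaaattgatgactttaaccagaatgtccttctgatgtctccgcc

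It lies 3826 bases after A_52_P665742 and 26832 bases before A_51_P377508 in the array annotation for mm7. Whether each probe falls in an exon, an intron or an untranslated region was not analysed here.

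**Figure D2:**
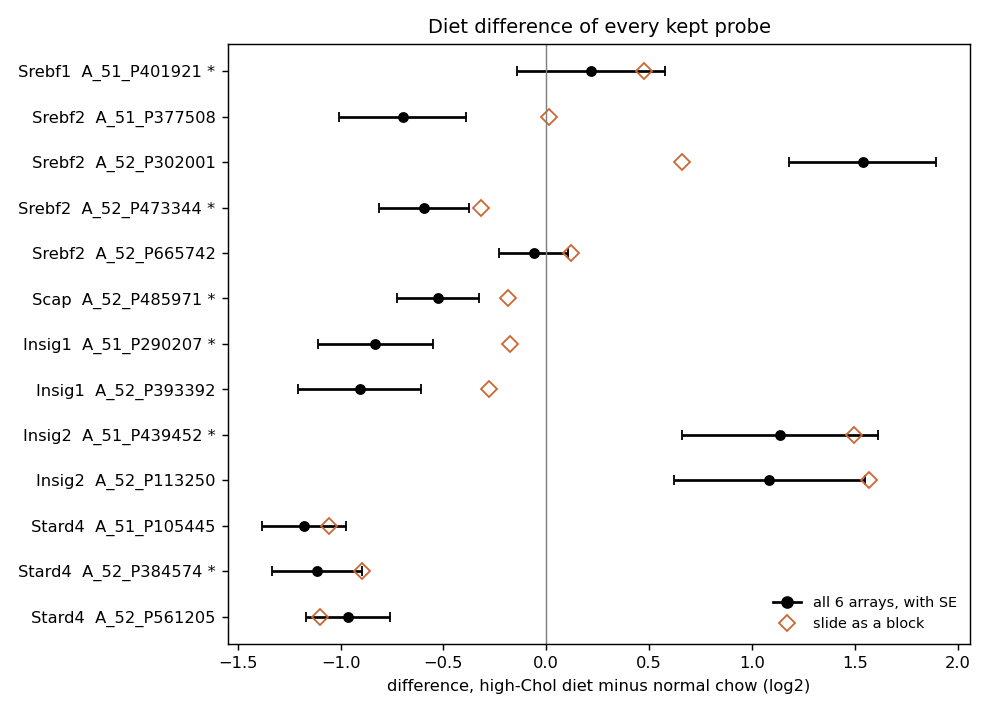
Diet difference (x axis, log2, high-Chol diet minus normal chow) of the 13 kept probes of the 6 genes (y axis; an asterisk marks the brightest probe of a gene), as black points with SE over all 6 arrays and as open diamonds with slide as a block. The 3 Stard4 probes stay near -1 in both, the Insig1 and Scap probes move toward 0 with the block, and 3 of the Srebf2 probes range from -0.70 to -0.06. The fourth, A_52_P302001, was not well above background on normal chow, so its point is a fitted value and not a measured size.

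Srebf1, which encodes SREBP-1, showed no detectable difference. Its single probe, A_51_P401921 (NM_011480, chr11:60281270-60281329 on the minus strand in mm7), read 5.63, 5.89 and 6.35 in the normal chow arrays and 6.43, 5.40 and 6.69 in the high-Chol arrays. The lowest and the highest of the 6 arrays were both from the high-Chol diet. The difference was 0.22 (SE 0.36, limma adjusted p = 0.739). The 95% interval ran from -0.64 to 1.07, so a fall or a rise within that range remains possible. The slide block gave 0.47. The sign turned under median scaling (-0.02), without high-Chol array 3 (-0.04) and in the authors' deposited values (-0.03). The SREBP-1a and SREBP-1c forms start at different first exons, and 1 probe cannot measure each of them.

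Scap, the escort of both SREBPs, was lower in mean on the high-Chol diet. A_52_P485971 (NM_001001144, chr9:110082822-110082881 on the plus strand in mm7) read 5.98, 5.69 and 5.99 in the normal chow arrays and 5.70, 5.19 and 5.18 in the high-Chol arrays. High-Chol array 1 sat just above the lowest normal chow array, and the 2 arrays of slide 2 lay below all others. The difference was -0.53 (SE 0.20, limma adjusted p = 0.203). The slide block gave -0.18, quantile normalization -0.33 and the normexp background -0.13, and without high-Chol array 1, where diet and slide cannot be told apart, it was -0.70 (limma adjusted p = 0.0330).

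The 2 INSIG genes had means on opposite sides of normal chow, and neither passed the test. Insig1, the form induced by SREBP itself, was lower on the high-Chol diet. A_51_P290207 (NM_153526, chr5:27110161-27110220 on the plus strand in mm7) read 1.94, 1.93 and 1.86 in the normal chow arrays and 1.73, 0.74 and 0.77 in the high-Chol arrays. The normal chow arrays had an SD of 0.04, high-Chol array 1 lay slightly below them, and the 2 arrays of slide 2 lay far below. The difference was -0.83 (SE 0.28, 95% interval -1.49 to -0.17), a 1.78-fold lower signal (limma adjusted p = 0.174). The slide block gave -0.18 and the normexp background -0.43, and without high-Chol array 1 it was -1.16 (limma adjusted p = 0.0047).

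The second Insig1 probe gave the same picture. A_52_P393392 (NM_153526), whose 60 bases span 473 bases of chr5:27107061-27107533 and so cross a gap in the genome, read 1.18, 0.60 and 0.90 in the normal chow arrays and 0.61, -0.29 and -0.37 in the high-Chol arrays. High-Chol array 1 lay just above the lowest normal chow array. Its difference was -0.91 (SE 0.30, limma adjusted p over probes 0.173) and was -0.28 with slide as a block and -1.22 without high-Chol array 1 (limma adjusted p over probes 0.0139). The probe is shown because it reads across that gap.

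Insig1 probe A_52_P393392: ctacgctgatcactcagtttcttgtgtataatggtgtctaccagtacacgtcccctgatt

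Insig2, the form that does not depend on SREBP and whose liver transcript is known to fall with insulin, was higher in mean on the high-Chol diet. A_51_P439452 (NM_133748, chr1:121175294-121175353 on the minus strand in mm7) read 4.76, 3.37 and 3.23 in the normal chow arrays and 5.28, 5.31 and 4.18 in the high-Chol arrays. High-Chol arrays 1 and 2 were the highest, and normal chow array 1 lay above high-Chol array 3, so the diets overlapped. The difference was 1.14 (SE 0.48, 95% interval -0.00014 to 2.27), a 2.20-fold higher signal, with a limma adjusted p of 0.236. The 1 high-Chol array on slide 1 was among the highest, and with slide as a block the difference was 1.49. Without normal chow array 1 it was 1.62.

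A_52_P113250 (NM_178082), 988 bases away, read 2.95, 1.73 and 1.52 in the normal chow arrays and 3.64, 3.45 and 2.37 in the high-Chol arrays. The arrays stood in nearly the same order as at the first probe, with the 2 highest exchanged, and the difference was 1.08 (SE 0.46, limma adjusted p over probes 0.251) and 1.57 with slide as a block. The third probe named Insig2, A_52_P923173 (AK036292), is annotated on the opposite strand and was not well above background on any array.

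Within each array the Insig1 signal was set against the Insig2 signal, a quantity that no single scaling factor of the array can move. This log2 difference was -2.83, -1.44 and -1.37 in the normal chow arrays and -3.55, -4.57 and -3.42 in the high-Chol arrays. The diets did not overlap, and the mean shifted by -1.97, a 3.91-fold lower Insig1 to Insig2 ratio. The exact two-sided permutation test gave p = 0.1, the smallest value that 3 against 3 arrays allow (0.3 after Benjamini-Hochberg adjustment over 3 pairs). On slide 1 alone the shift was -1.67.

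Of the other 2 pairs, Srebf2 against Srebf1 read -2.36, -3.02 and -3.63 in the normal chow arrays and -3.79, -3.32 and -4.32 in the high-Chol arrays. These ranges overlapped (mean shift -0.81, exact permutation p = 0.2, adjusted 0.3). The shift was -0.17 when all probes of a gene were averaged, and -0.49 without normal chow array 1. Srebf2 against Scap read -2.71, -2.82 and -3.26 in the normal chow arrays and -3.07, -3.12 and -2.81 in the high-Chol arrays. Its mean shift of -0.07 was well within the spread of the arrays (exact permutation p = 0.9).

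**Figure D3:**
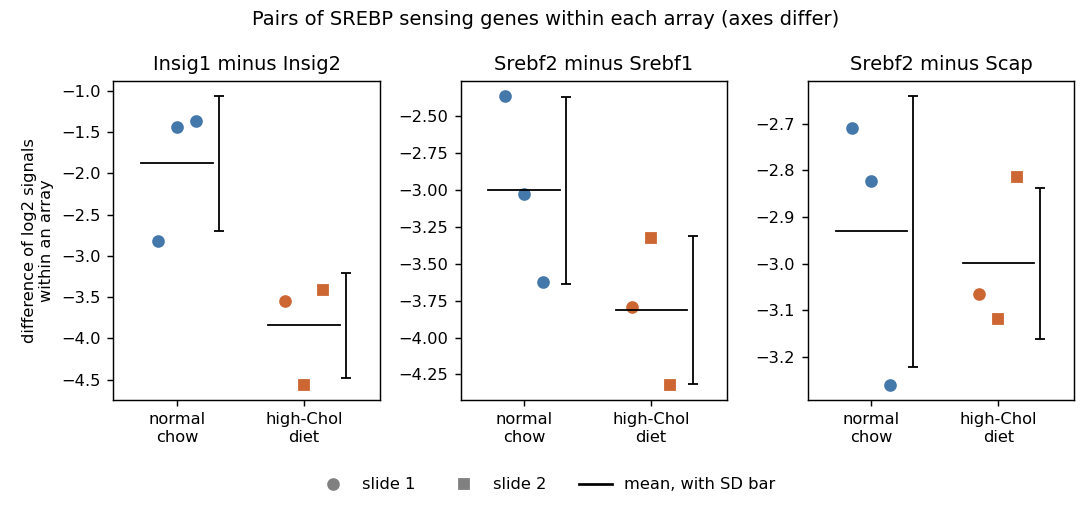
Difference of the log2 signals of a pair of genes within each array (y axis) by diet (x axis); circles are slide 1, squares slide 2, with the mean and SD over 3 arrays. Insig1 minus Insig2 lies at or above -2.83 on normal chow and at or below -3.42 on the high-Chol diet, while the other 2 pairs overlap.

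Stard4, whose product moves Chol between membranes and feeds the endoplasmic reticulum where Scap senses it, was the only 1 of the 6 to pass the test, and it fell. A_52_P384574 (NM_133774) read 3.37, 3.37 and 3.24 in the normal chow arrays and 2.43, 1.76 and 2.44 in the high-Chol arrays. Every high-Chol array lay below every normal chow array, on both slides. The difference was -1.12 (SE 0.22, 95% interval -1.63 to -0.60), a 2.17-fold lower signal, and it passed the limma test over all genes (adjusted p = 0.0466). It was the 147th lowest difference of 16730. With slide as a block it was -0.89, which no longer passed (adjusted p = 0.437). The call was also lost with the normexp background, with quantile normalization, without the filter on dim probes and by the methods' t-test. It was lost as well without any 1 array other than high-Chol array 1.

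The other 2 Stard4 probes were lower as well. A_51_P105445 read 0.33, 0.76 and 0.83 in the normal chow arrays and -0.42, -0.81 and -0.40 in the high-Chol arrays, a difference of -1.18 (SE 0.20, limma adjusted p over probes 0.0344). A_52_P561205 read 0.07, 0.45 and 0.65 in the normal chow arrays and -0.71, -0.68 and -0.34 in the high-Chol arrays, a difference of -0.96 (SE 0.21, limma adjusted p over probes 0.0637, but 0.0314 with median scaling and 0.0451 without high-Chol array 1). Neither probe showed an overlap of the diets. The slide block gave -1.06 and -1.10, and neither passed (limma adjusted p over probes 0.348 and 0.331). A_51_P105445 also lost its call under the normexp background and when normal chow array 2 or 3 or high-Chol array 2 or 3 was left out. Over all 23917 probes fitted, 0.255% were called lower and 2.36% higher. The 3 probes share the RNA of each array and are not replicates of one another.

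The sequences before the start sites of 3 of these genes are shown because Srebf2 and Insig1 were both lower in mean whereas Insig2 was higher. They are the 250 bases before the RefSeq start in GRCm38.p6, read along the gene. Capitals mark the matches, on either strand, to the sterol element core TCACNCCA, the E-box CACGTG, the CCAAT box CCAAT and the GC box GGGCGG. No match overlaps another in these stretches. Insig2 has several start sites in RefSeq, of which the 2 farthest upstream are given.

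Srebf2, chr15:82147019-82147268, plus strand: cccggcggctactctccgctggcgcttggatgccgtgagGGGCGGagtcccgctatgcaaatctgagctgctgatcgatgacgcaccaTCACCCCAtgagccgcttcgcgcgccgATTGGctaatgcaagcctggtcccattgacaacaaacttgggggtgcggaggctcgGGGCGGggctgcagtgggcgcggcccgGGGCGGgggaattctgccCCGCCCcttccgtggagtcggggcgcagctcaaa
Insig1, chr5:28071162-28071411, plus strand: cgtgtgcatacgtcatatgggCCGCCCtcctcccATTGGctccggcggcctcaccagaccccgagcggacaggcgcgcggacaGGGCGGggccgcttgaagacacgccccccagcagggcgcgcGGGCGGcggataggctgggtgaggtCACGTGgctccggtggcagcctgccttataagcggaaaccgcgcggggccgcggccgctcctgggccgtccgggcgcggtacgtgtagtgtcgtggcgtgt
Insig2, first start, chr1:121332590-121332839, minus strand: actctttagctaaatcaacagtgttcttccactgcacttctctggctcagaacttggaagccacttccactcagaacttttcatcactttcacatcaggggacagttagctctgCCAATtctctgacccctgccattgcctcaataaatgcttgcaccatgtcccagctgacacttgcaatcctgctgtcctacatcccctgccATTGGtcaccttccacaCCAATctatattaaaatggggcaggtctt
Insig2, second start, chr1:121328025-121328274, minus strand: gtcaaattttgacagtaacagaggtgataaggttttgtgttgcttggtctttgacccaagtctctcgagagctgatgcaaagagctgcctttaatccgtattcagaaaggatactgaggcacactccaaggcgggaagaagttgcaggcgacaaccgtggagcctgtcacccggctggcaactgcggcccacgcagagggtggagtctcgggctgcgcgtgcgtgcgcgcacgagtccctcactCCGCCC

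The sterol element core, the kind of site that SREBP is known to bind, occurred in the Srebf2 window as TCACCCCA at -162 bases from the start. Across the 32851 RefSeq windows of 300 bases that run from 250 bases before to 50 after a start, 4.36% held this core. It did not occur in the 1 window of Insig1, the 3 of Insig2, the 2 of Scap or the 3 of Srebf1. Stard4 was not searched. An E-box, which SREBP can bind as well, occurred in Insig1 at -101 and in Scap, against 7.15% of all windows. CCAAT and GC boxes were common, in 37.4% and 35.7% of windows. These matches describe letters and say nothing on binding in these livers.

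Across the 6 arrays, the brightest probes of Srebf2, Scap, Insig1 and Stard4 followed one another, with Pearson's r of 0.82 to 0.94. Insig2 ran against them, with r from -0.69 with Stard4 to -0.30 with Srebf2, and Srebf1 followed none of the 4, with r between -0.08 and 0.07. These values describe 6 arrays that also share the diet and slide split. Among the 2162 or 2163 other genes measured on all 6 arrays with an SD of at least 0.5, the gene most like Srebf2 was Hyou1, an endoplasmic reticulum chaperone (r = 0.997). Those most like Scap were BC038662, A830007L07Rik and Nup210, and those most like Insig1 were V1rh1, Adcy1 and an unnamed transcript. Stard4 ran most closely with Creb3l3, a liver transcription factor of the endoplasmic reticulum (r = 0.993), Cry2, a clock repressor, and C730043O17. Next to Srebf2 stood Olfr1384 and Itgb4, and for Srebf1 the likeness was weaker, with Olfr661 first at r = 0.857 and Mogat2 and Daam2 after it.

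The genes most like Insig2 were Elovl3, a fatty acid elongase whose liver mRNA is known to follow the day (r = 0.991), Crot, a peroxisomal acyltransferase (r = 0.991), and Gngt1 (r = 0.986). Elovl3 read 4.32, 1.77 and 1.91 in the normal chow arrays and 4.73, 5.14 and 3.10 in the high-Chol arrays. Elovl3 was picked for its likeness to Insig2 over these same arrays, so the like position of normal chow array 1 follows from that choice.

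The clock genes also differed between arrays of the same diet. Arntl, an activator of the clock, read -1.12, -1.71 and -3.67 in the normal chow arrays and 1.19, 1.17 and -1.51 in the high-Chol arrays. From the highest array to the lowest, this is the order of Insig2 save that high-Chol arrays 1 and 2 change places. Dbp, a clock output gene, read 6.57, 6.49 and 6.80 in the normal chow arrays and 0.86, 0.86 and 5.64 in the high-Chol arrays, so that high-Chol array 3, the one with the lowest Insig2 of its diet, was near normal chow. Of 12 clock genes tested 10 were lower in mean and 2 higher, with a median difference of -1.02 (-1.31 with slide as a block), and none passed the limma test over all genes. Median scaling called 2 of them lower, as did leaving out high-Chol array 1 or 3. At an unadjusted p under 0.05, 7 were lower and 2 higher, where 8.83% and 12.3% of all genes were. The part of the clock genes in the Insig2 result was not tested, and the hour at which the livers were taken is not given in the sources used here.

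**Figure D4:**
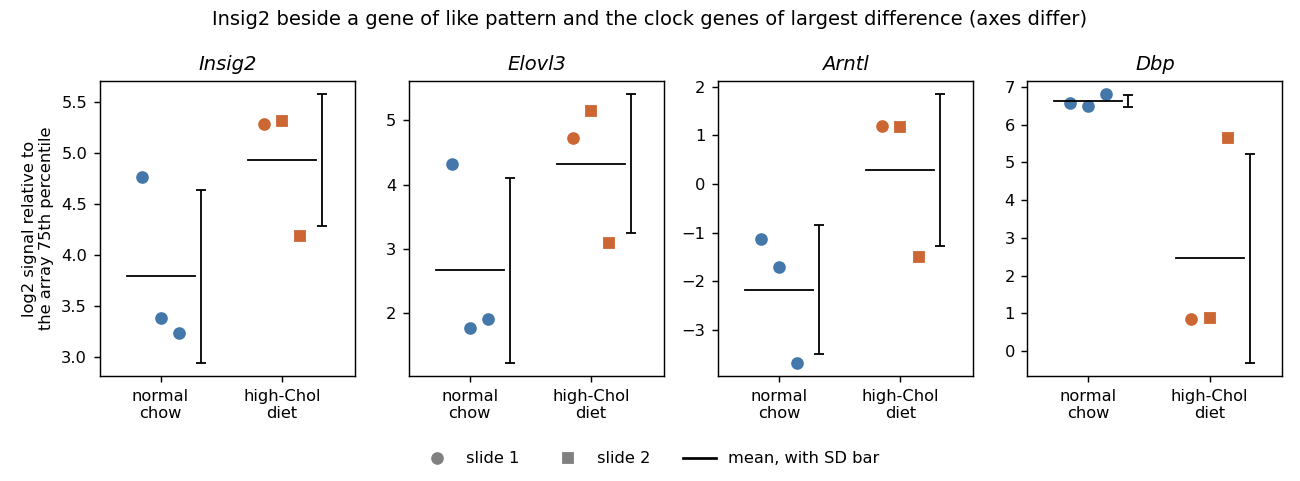
Log2 signal relative to the array's 75th percentile (y axis) of Insig2, Elovl3, Arntl and Dbp by diet (x axis); circles are slide 1, squares slide 2, with the mean and SD over 3 arrays. High-Chol array 3 lies nearest normal chow in all 4 genes, and normal chow array 1 is the highest of its diet for Insig2, Elovl3 and Arntl. Elovl3 was picked for its likeness to Insig2 over these arrays.

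Most targets of SREBP-2 in Chol synthesis were lower in mean on the high-Chol diet, as was Srebf2 at its brightest probe, which did not pass the test. Of 19 tested, 18 were lower in mean and 1 higher, with a median difference of -1.34 against -0.02 over all genes. The limma test called 5 of them lower (0.227% of all genes were). They were Sqle, the epoxidase that commits squalene to sterols (-2.97), Sc4mol (-2.10) and Cyp51 (-2.01), which remove methyl groups from lanosterol and its products, and Nsdhl (-1.71) and Hsd17b7 (-1.61), which act in the same demethylation. The only member with a higher mean was Acat2 (0.09). With slide as a block the median was -0.97 and 18 of 19 were lower, but none of the 5 passed the test (limma adjusted p from 0.188 for Sc4mol to 0.418 for Hsd17b7). None of the 19 was called with the normexp background, without the filter on dim probes, or without any 1 of normal chow arrays 2 and 3 and high-Chol arrays 2 and 3, while 1 was called without normal chow array 1 and 13 without high-Chol array 1.

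Sqle read 4.36, 3.07 and 3.42 in the normal chow arrays and 1.39, 0.28 and 0.26 in the high-Chol arrays. Normal chow array 1, with the highest Insig2 of its diet, also had the highest summed signal of these genes, 834 times the 75th percentile over the 17 with 6 values, against 568 and 705 on the other normal chow arrays. The high-Chol arrays summed to 449, 331 and 295.

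Of 14 targets of SREBP-1 in fatty acid synthesis tested, 11 were lower in mean and 3 higher, with a median of -0.55. None passed the limma test over all genes, while 3 were lower at an unadjusted p under 0.05, where 8.83% of all genes were. Differences over the list ran from -1.89 for Thrsp, a lipogenic regulator, to 0.43 for Scd1, the stearoyl-CoA desaturase. With slide as a block the median was -0.13, and it was -0.31 with the normexp background, -0.28 without normal chow array 3 and -0.29 without high-Chol array 3. One gene was called lower with median scaling and 2 without high-Chol array 1.

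In the machinery around the 6 genes no gene passed the test. Mbtps1, the protease of the first cut, read 4.18, 4.33 and 4.44 in the normal chow arrays and 4.09 and 4.01 in high-Chol arrays 1 and 2, its spot on high-Chol array 3 being marked as an outlier and left out of the fit. Its difference was -0.27 (limma adjusted p = 0.400), and it was -0.22 with the slide block, -0.10 by quantile normalization and -0.44 by median scaling. Mbtps2, the protease of the second cut, was not well above background on any array and was not tested. Of 10 genes of the COPII coat, 8 were lower in mean and 2 higher, with a median of -0.13 (-0.16 with slide as a block, and from -0.22 to -0.07 without 1 array) and a range from -0.53 for Sec31a to 0.37 for Sec24d, both coat subunits. The list for INSIG degradation or Scap retention held 14 genes, of which Fbxw7 is known for neither role. Of these 14, 11 were lower and 3 higher, with a median of -0.16 (-0.14 with slide as a block, -0.10 without normal chow array 3, -0.39 with median scaling and -0.04 with quantile normalization). Their range was from -0.54 for Erlin1, a sterol-sensitive scaffold, to 0.46 for Rnf145, a ubiquitin ligase. None of these 24 passed the limma test over all genes (1 of the INSIG list did without high-Chol array 1). At an unadjusted p under 0.05, 1 of each list was lower, where 8.83% of all genes were.

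Among the other carriers of sterols, 8 of 12 tested were lower in mean and 4 higher, with a median of -0.14 (-0.16 with slide as a block, -0.21 without normal chow array 1 and -0.07 without high-Chol array 1). Of the 12, 1 passed the limma test over all genes, and it rose (2.69% of all genes were called higher). Gramd1b, which moves Chol from the plasma membrane to the endoplasmic reticulum, read -1.46, -1.30 and -1.25 in the normal chow arrays and -0.29, 0.30 and 0.18 in the high-Chol arrays, a difference of 1.40. With slide as a block it was 1.05 and did not pass (limma adjusted p = 0.138), and the call was also lost with the normexp background, without the filter on dim probes and without any 1 array other than high-Chol array 1. The lowest difference was that of Npc1, which exports Chol from the lysosome (-0.84, limma adjusted p = 0.135).

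Of 8 genes of LXR and its targets, 6 were higher in mean and 2 lower, with a median of 0.31 (0.27 with slide as a block). The median was 0.06 without normal chow array 1, 0.17 without high-Chol array 1 and 0.07 with median scaling, with 4 of 8 lower in each case, and 0.50 without normal chow array 3. Without high-Chol array 1, where diet and slide cannot be told apart, 3 of the 8 were called higher. Over all 6 arrays only Abcg1, which exports Chol to lipoproteins, was called higher (2.69% of all genes were). It read 0.83, 0.93 and 0.97 in the normal chow arrays and 2.08, 2.25 and 2.23 in the high-Chol arrays, a difference of 1.28. With slide as a block it was 1.17 and did not pass (limma adjusted p = 0.0955), nor did it pass with the normexp background, without the filter on dim probes, or without normal chow array 2 or high-Chol array 2. Abcg1 is known to be expressed in macrophages too, whose markers were higher in the same arrays as given above. Of 7 insulin and fasting responsive genes, 4 were lower in mean and 3 higher, with a median of -0.18 that was 0.08 with slide as a block, and ran from -0.46 without normal chow array 1 to 0.10 without high-Chol array 3. Their differences ran from -0.89 for Cpt1a, of fatty acid oxidation, to 1.19 for G6pc, of glucose release. None of the 7 passed the limma test over all genes. At an unadjusted p under 0.05, 1 was lower and 2 were higher, where 8.83% and 12.3% of all genes were. Of these genes 1 was called lower with median scaling or without normal chow array 1, and 1 was called higher without high-Chol array 3.

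**Figure D5:**
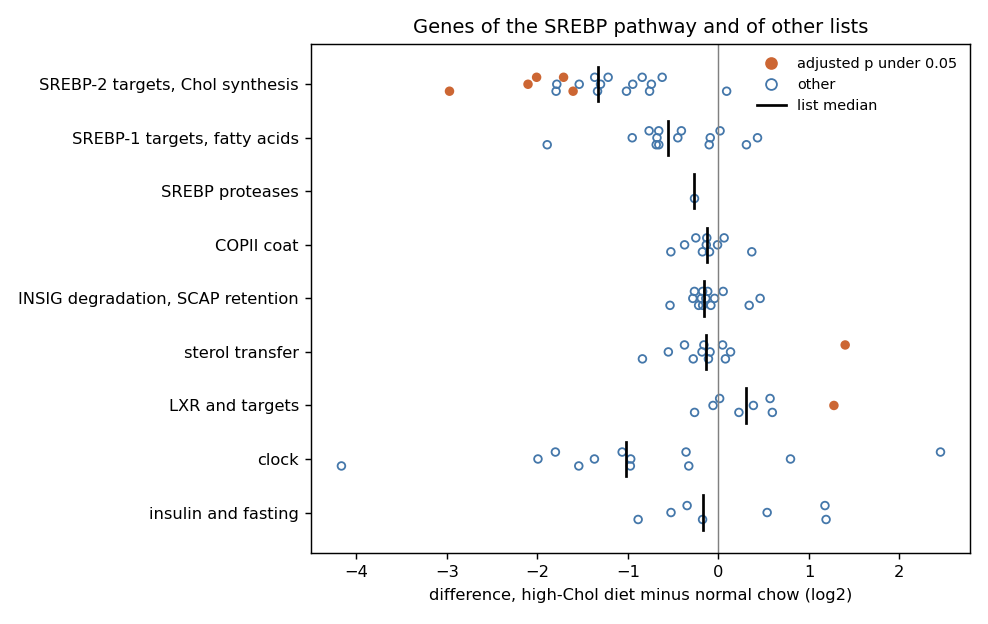
Diet difference (x axis, log2, high-Chol diet minus normal chow) of each tested gene in 9 lists (y axis); filled points passed the limma test over all genes at an adjusted p under 0.05, and bars mark list medians. The SREBP-2 targets have a median of -1.34 and 5 filled points, and the COPII and INSIG degradation lists lie close to 0.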

How the data were processed

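Gene expression was measured in whole liver on 6 one-colour Agilent arrays, 3 per diet. The authors deposited the scanner output, whose spot intensity values had been background-subtracted by Agilent Feature Extraction (9.5 on slide 1, 9.1 on slide 2) and not normalized between arrays. The authors also deposited log2 values, 1 per probe and diet, made in Gene Spring and used here only as an alternative without a test. The log2 of the processed signal was taken relative to each array's 75th percentile over non-control spots. Outlier spots were left out. A probe was kept if all 3 arrays of either diet were well above background, and a gene was read by its brightest kept probe. The comparison of diets used limma (version 3.58.1, R 4.3.3, lmFit and eBayes without covariates) with Benjamini-Hochberg adjustment over 16730 genes, or over 23917 probes for single probes. P-values measure the spread between arrays, and their number limits the precision. Pairs of genes within an array were compared by exact two-sided permutation tests. The code was tested on simulated data. The genes named were the 6 members with all their probes, the SREBP proteases, the called genes of each list or else its lowest and highest, and the 3 genes most like each member; other genes were chosen after their values were seen. Members and lists were chosen with earlier results of these data known. Of 141 list genes, 140 were on the array by current or older symbol. The array annotation gave probe positions (mm7), and RefSeq gave promoter sequences (GRCm38.p6). Alternatives were normexp background, median and quantile scaling, other filters, the mean of probes, slide as a block, the methods' t-test, a trended robust prior and leaving out each array.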

Additional observations from a re-analysis of the deposited data

How the results depend on the processing

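The count of genes called over all genes, 488 here, was 0 with the normexp background (306 at an unadjusted p under 0.05), 26 without the filter on dim probes, 11 with slide as a block, 5 by the methods' t-test (with Benjamini-Hochberg adjustment), and 42 (without normal chow array 2) to 3077 (without high-Chol array 1) when 1 array was left out. The authors' values allow no test, and so gave no count. Srebf1 turned to -0.0192 with median scaling (its single probe alike) and to -0.0254 in the authors' deposited values, and ran from -0.0423 to 0.6044 when 1 array was left out. Srebf2 turned to 0.0459 as the mean of its probes, which takes in A_52_P302001, at background on normal chow; the other 3 probes were all lower in mean. Its probe A_51_P377508 turned to 0.0139 with slide as a block, A_52_P302001 to -0.5431 with normexp, and A_52_P665742 to 0.0532 with normexp, 0.1221 with slide as a block and within -0.1527 to 0.0440 when 1 array was left out. Scap was -0.7686 in the authors' deposited values and ran from -0.6972 to -0.4376 when 1 array was left out, and Insig1 from -1.1585 to -0.6610; both passed the limma test only without high-Chol array 1. With normexp Srebf2 shrank to -0.2923, Scap to -0.1311 and Insig1 to -0.4334, and with quantile normalization Scap was -0.3312. Stard4 kept its direction in all 20 alternatives, but lost its call at -0.8060 with normexp, -1.0085 with quantile normalization, -0.8949 with slide as a block, at its unchanged value of -1.1167 without the filter and by the methods' t-test, and without any 1 array other than high-Chol array 1, within -1.2315 to -0.8910. Insig2 stayed positive in all 20. Srebf2 minus Scap turned to 0.5720 with the mean of probes and ran from -0.2341 to 0.0421 when 1 array was left out. Of the lists, COPII turned to a median of 0.0805, INSIG degradation to 0.0528, sterol transfer to 0.0596 and insulin and fasting to 0.0392 with normexp, sterol transfer to 0.0417 with quantile normalization, and insulin and fasting to 0.0819 with slide as a block, with -0.4571 to 0.0961 when 1 array was left out. In each case the cause was not tested. In all, 332 of 403 recomputed values kept their direction and side of the threshold or, without a test, stayed within the spread between arrays. These values overlap, since genes are counted again by probe, and a result that was not called cannot lose a call. The tally is therefore no measure of how firm the results are.

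The median difference of all genes was -0.26 with median scaling and -0.11 with normexp. Taken relative to that median, an alternative chosen after seeing the data, no member changed direction. No paired analysis was possible because the labels tie no array to a replicate number. Probes near background, such as A_52_P302001, are limited by their low signal.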
